A study of Mus musculus with 2 samples.

Results

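The genes described here carry out DNA replication and the synthesis of its nucleotide precursors. There were 48 of them among the 34745 gene rows of the deposited tables, chosen by symbol from a list in 6 classes: E2F factors and cyclin E, origin licensing, the CMG helicase, the DNA polymerases, fork factors, and nucleotide synthesis. The RNA-seq libraries were made from splenic regulatory T (Treg) cells of C57BL/6 mice aged 2 weeks, sorted for CD4 and for the YFP reporter of the Foxp3Cre allele. There was 1 library from poh1fl/fl Foxp3Cre+ mice, called the knockout library, and 1 from poh1+/+ Foxp3Cre+ mice, called the wild-type library. Both groups carry Foxp3Cre. By this design poh1 should be deleted only where the Foxp3 gene drives Cre, and other cells of the knockout mice should keep it. Where deletion took place was not measured in these libraries. The labels do not say whether RNA of several mice was pooled.

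A cell commits to division when G1 cyclins, cyclin E among them, with their kinases free the E2F transcription factors from the pocket proteins. E2F then turns on most of the genes described here. In G1 the origin recognition complex, CDC6 and CDT1 load rings of MCM2 to MCM7 onto DNA, which is called licensing, and geminin blocks CDT1 once S phase has begun. CDC45 and the GINS complex join the MCM ring to form the CMG helicase, which opens the fork for the polymerases, the clamp PCNA and its loader RFC. Ribonucleotide reductase and the thymidylate enzymes supply the deoxynucleotides (dNTPs). Resting lymphocytes express these genes at low levels, and dividing ones at high levels.

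The counts of the knockout library summed to 14544212 and those of the wild-type library to 18124611. Psmd14, the gene of POH1, was at 31.8 CPM (reads per 1000000 of the scaled total) in the knockout library, against 89.4 CPM in the wild-type library, 2.81-fold lower (2.53 to 3.12), the direction its label gives. Foxp3 was at 1073 CPM in the knockout library, against 671 CPM in the wild-type library, and all 11 markers of Treg and T cells were measured in both. Of these 11, 3 were called lower and 2 higher. Those lower, named after their values were seen, were Ctla4 at 1.59-fold, Ikzf2 at 1.57-fold and Cd28 at 3.26-fold, and the other marker called higher was Il2ra, at 1530.0 CPM in the knockout library against 989.8 CPM in the wild-type library. Ranges in parentheses are exact 95% counting intervals of the ratio, which cover counting error only. Each genotype had a single library, so there is no replicate check of any difference, and no test was made. A gene is called lower or higher where its interval lies wholly beyond 1.5-fold.

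Replication genes were lower in the knockout library as a group. A gene counted as measured where either library, or both, reached 1 CPM. All 48 were measured, and 24 of them were called lower and 0 called higher, while over all 13464 measured genes 12.3% were called lower and 9.58% called higher. Among genes with a mean of 10 CPM or more, 22 of 45 replication genes and 10.2% of all genes were called lower. At a limit of 2-fold, 12 of the 48 were called lower and 0 higher, beside 6.63% and 4.34% of all measured genes. The ratio was below 1 in 46 of the 48, the exceptions being E2f3 and Fen1. Their median log2 ratio was -0.74, a 1.67-fold lower level, beside a median of -0.01 and quartiles of -0.44 and 0.39 over all measured genes.

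Together the 48 genes held 2442 CPM in the knockout library, against 4206 CPM in the wild-type library, 1.72-fold lower (1.70 to 1.74). They took 0.244% of the knockout counts and 0.421% of the wild-type counts. In bulk RNA, fewer cells in S phase and less of these transcripts in each cell cannot be told apart. The proliferation marker Mki67 was at 344 CPM in the knockout library, against 1125 CPM in the wild-type library, 3.27-fold lower (3.17 to 3.37). Across the 48 genes the log2 ratio had a Spearman correlation of -0.15 with the wild-type level in CPM. These genes come from the same pair of libraries and are not independent, so the correlation only describes them.

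**Figure D1:**
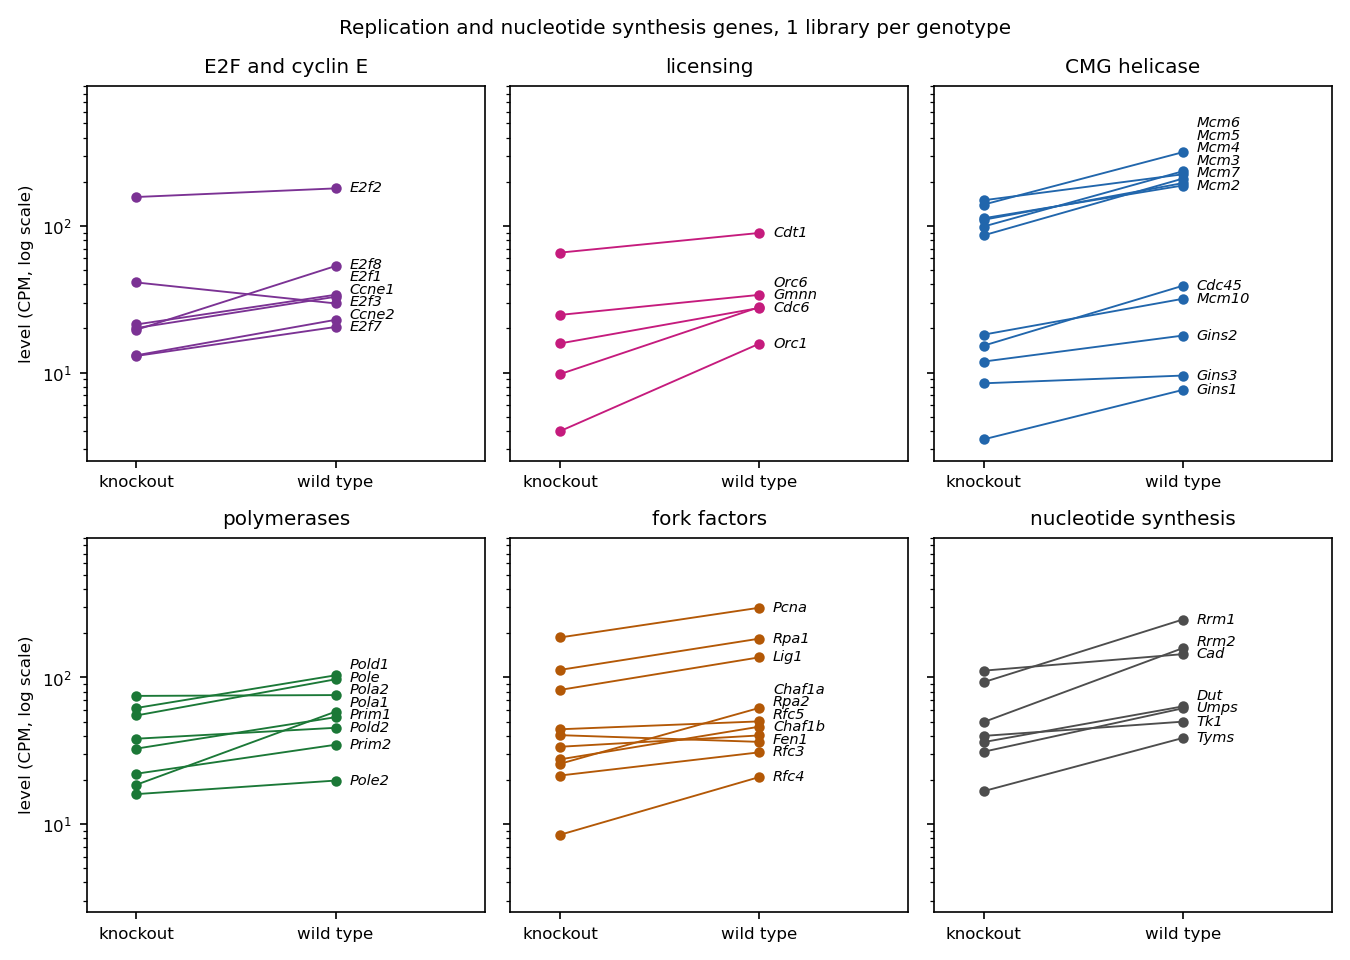
Level of each of the 48 genes in CPM (log axis), by class, with the knockout library on the left and the wild-type library on the right of each panel and a line joining the 2 values of a gene. All lines climb toward the wild type except those of E2f3 and Fen1, and that of Pola2 is close to flat, at 74.9 CPM in the knockout library and 75.8 CPM in the wild-type library.

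The 6 classes differed in how far they were lower. Nucleotide synthesis had the lowest median log2 ratio, -0.98 over 7 genes, followed by the CMG helicase at -0.83 over 11 genes and licensing at -0.80 over 5. The medians of fork factors (10 genes), polymerases (8 genes) and the E2F and cyclin E class (7 genes) were -0.69, -0.68 and -0.67. Called lower were 5 of 7 genes of nucleotide synthesis, 8 of 11 of the CMG helicase, 2 of 5 of licensing, 5 of 10 fork factors, 3 of 8 polymerase genes and 1 of 7 genes of the E2F and cyclin E class. The share in the E2F and cyclin E class, 14.3%, is near the 12.3% of all measured genes called lower. Summed levels gave nucleotide synthesis as 2.02-fold lower (1.96 to 2.09) and the CMG helicase as 1.96-fold lower (1.92 to 2.00), while the E2F and cyclin E class was 1.31-fold lower (1.26 to 1.36). That last sum is set largely by E2f2, which was 1.14-fold lower. E2f2 held 158 of 286 CPM in the knockout library and 180.4 of 374 CPM in the wild-type library. The class median was a 1.59-fold lower level.

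**Figure D2:**
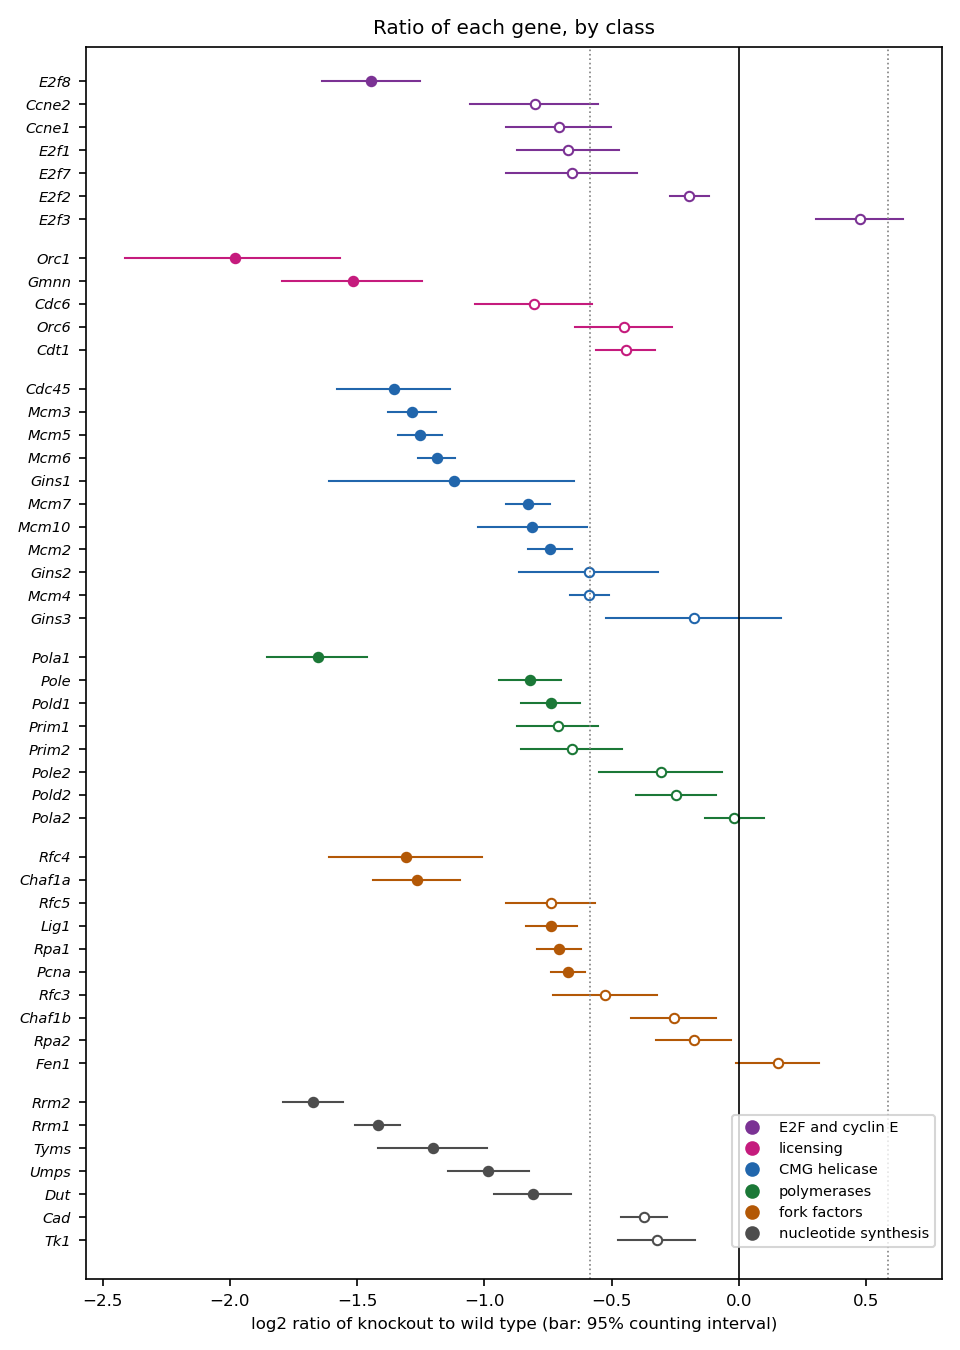
Log2 ratio of knockout to wild type for each gene, by class, with exact 95% counting intervals as bars; filled points are genes called lower, dotted lines mark 1.5-fold either way and the solid line marks no difference. Orc1 lies lowest at -1.97, and E2f3 at 0.47 lies highest, with part of its interval inside the dotted line.

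The promoters of these genes held E2F motif letters more often than promoters at large. The motif was searched on both strands as TTTCCCGC, TTTCGCGC, TTTGCCGC or TTTGGCGC in the 300 bases from 250 before to 50 after each gene start in the RefSeq table for GRCm38.p6, the assembly also called mm10. Of the 41 genes found in that table, 16 held a match in at least 1 listed promoter (39.0%), beside 2.61% of all 27025 genes in the table and 4.74% of the 9528 measured genes found there. The motif was present in 5 of 8 CMG helicase genes, 3 of 4 licensing genes, 3 of 6 polymerase genes, 3 of 6 genes of the E2F and cyclin E class, 2 of 10 fork factors and 0 of 7 nucleotide synthesis genes. Ccne2, Gmnn, Mcm4, Gins1, Gins2, Prim2 and Pole had no entry. The letters were not particular to these classes. Other genes of the same pathway, described further on, held them in 17 of the 72 found in that table (23.6%). By list, these were 5 of 13 E2F partners and pocket proteins, 6 of 18 other polymerase and fork factors and 4 of 13 other origin factors. Purine and pyrimidine ring synthesis had 2 of 14, and dNTP and folate supply 0 of 14. A match is a description of letters and not a bound site. A gene without a match may still hold an E2F site, since only these exact letters in these 300 bases were searched.

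Genes with and without the E2F letters had similar ratios. The 16 genes with a match had a median log2 ratio of -0.74, and 8 of them were called lower. The 25 genes without one had a median of -0.71, and 13 were called lower. The cell cycle homology region (CHR), a motif of genes turned on late in the cycle, was searched as TTTGAA or TTCGAA on both strands. It was present in 11 of the 41 replication genes (26.8%), beside 21.7% of all genes in the table, 16.5% of the measured genes found there and 26 of 32 mitosis genes (81.3%). By contrast 2 of the 32 mitosis genes held the E2F letters (6.25%). In 0 of the replication genes did an E2F match overlap a CHR match.

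Windows of 30 bases show the E2F letters, in capitals, at their place in the genes of 4 classes; all run 5′ to 3′ on the gene's strand and positions are counted from the RefSeq gene start, so that a negative one lies before it. Where a window holds part or all of another match, only the named one is in capitals.
Mcm3, chr1:20820263-20820292 on the minus strand, first capital at 38: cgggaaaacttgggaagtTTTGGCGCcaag
Mcm5, chr8:75109345-75109374 on the plus strand, first capital at -153: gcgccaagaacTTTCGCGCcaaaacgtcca
Mcm6, chr1:128359797-128359826 on the minus strand, first capital at -110: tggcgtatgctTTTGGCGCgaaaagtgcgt
Mcm7, chr5:138171849-138171878 on the minus strand, first capital at 16: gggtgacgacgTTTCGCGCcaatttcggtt
Cdc6, chr11:98908002-98908031 on the plus strand, first capital at -138: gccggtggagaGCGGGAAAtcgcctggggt
Cdt1, chr8:122568035-122568064 on the plus strand, first capital at 32: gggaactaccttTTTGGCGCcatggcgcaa
Rfc3, chr5:151651200-151651229 on the minus strand, first capital at -10: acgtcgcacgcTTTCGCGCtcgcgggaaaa
E2f3, chr13:29986056-29986085 on the minus strand, first capital at -11: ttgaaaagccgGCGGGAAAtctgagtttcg
E2f7, chr10:110745230-110745259 on the plus strand, first capital at -198: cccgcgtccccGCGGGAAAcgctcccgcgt

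**Figure D3:**
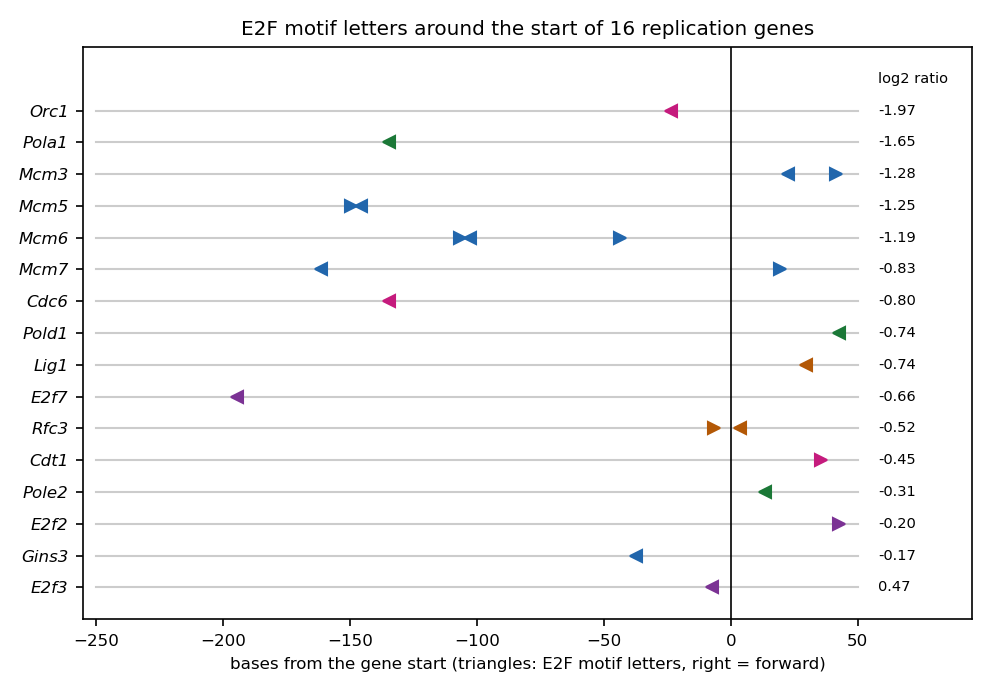
Position of E2F motif letters, in bases from the gene start, in the 16 replication genes that hold them, ordered by log2 ratio (printed at the right); triangles point right for a forward and left for a reverse match and are coloured by class. Matches lie before the start in 10 of the 16 genes.

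Of the 5 E2F factors among the 48, E2f8 was the 1 called lower. E2f8, a repressor that shuts down E2F targets late in S phase, was at 19.6 CPM in the knockout library, against 53.3 CPM in the wild-type library, 2.72-fold lower (2.38 to 3.12). Its relative E2f7 had 13.0 CPM in the knockout library and 20.5 CPM in the wild-type library, a 1.58-fold lower level (1.32 to 1.89) that was not called. The activator E2f1 stood at 21.3 CPM in the knockout library and 33.9 CPM in the wild-type library, 1.59-fold lower (1.39 to 1.83), also not called. E2f2, another activator, had 158 CPM in the knockout and 180.4 CPM in the wild-type library, 1.14-fold lower (1.08 to 1.21). The activator E2f3 went the other way, at 41.2 CPM in the knockout library, against 29.6 CPM in the wild-type library, a ratio of 1.39 (1.23 to 1.56) whose interval crosses the 1.5-fold limit.

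Cyclin E genes sat close to that limit from the other side. Ccne1 had 20.1 CPM in the knockout library and 32.9 CPM in the wild-type library, 1.63-fold lower (1.42 to 1.88). Ccne2 had 13.1 CPM in the knockout library and 22.9 CPM in the wild-type library, 1.74-fold lower (1.47 to 2.08). Neither was called. Exons of Ccne2 overlap those of Ints8 over 17.4% of their length, and the kit does not mark strand.

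In licensing, the lowest ratio of the 48 genes belonged to Orc1, the subunit of the origin recognition complex whose level cycles with division. Orc1 (mm10 chromosome 4, 108579423 to 108614833) had 58 counts in the knockout library and 285 counts in the wild-type library, or 3.99 CPM in the knockout and 15.7 CPM in the wild-type library, 3.95-fold lower (2.97 to 5.33). Gmnn, the gene of geminin, was at 9.76 CPM in the knockout library, against 27.9 CPM in the wild-type library, 2.86-fold lower (2.37 to 3.47). These were the licensing genes called lower. Its target Cdt1 had 65.8 CPM in the knockout library and 89.6 CPM in the wild-type library, 1.36-fold lower (1.26 to 1.48), so the intervals of the inhibitor and the factor it blocks do not overlap. Cdc6, the loader ATPase, was at 15.8 CPM in the knockout library and 27.6 CPM in the wild-type library, 1.75-fold lower (1.49 to 2.05). Orc6, another subunit of the complex, was at 24.7 CPM in the knockout library and 33.9 CPM in the wild-type library, 1.37-fold lower (1.20 to 1.56).

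The promoters of Orc1 and Pola1, the lowest genes with E2F letters, are shown beside that of Gins3, whose ratio was nearest to 1 among genes with the letters, and that of Pcna, the gene without them with the highest level. Each is the 250 bases before the RefSeq start (GRCm38.p6), 5′ to 3′ on the gene's strand, with E2F letters in capitals. They lie at chr4:108579204-108579453 on the plus strand for Orc1, chrX:93632156-93632405 on the minus strand for Pola1, chr8:95633309-95633558 on the plus strand for Gins3 and chr2:132253181-132253430 on the minus strand for Pcna.
Orc1: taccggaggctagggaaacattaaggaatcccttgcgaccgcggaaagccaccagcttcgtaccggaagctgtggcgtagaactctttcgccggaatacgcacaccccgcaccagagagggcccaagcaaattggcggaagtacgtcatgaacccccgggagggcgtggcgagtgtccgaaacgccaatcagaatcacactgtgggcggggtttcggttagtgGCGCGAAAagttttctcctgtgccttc
Pola1: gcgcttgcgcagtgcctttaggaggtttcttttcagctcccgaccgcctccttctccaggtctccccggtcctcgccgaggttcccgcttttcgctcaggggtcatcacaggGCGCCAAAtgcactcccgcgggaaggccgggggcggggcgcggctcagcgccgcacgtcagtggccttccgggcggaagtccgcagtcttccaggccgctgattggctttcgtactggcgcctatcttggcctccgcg
Gins3: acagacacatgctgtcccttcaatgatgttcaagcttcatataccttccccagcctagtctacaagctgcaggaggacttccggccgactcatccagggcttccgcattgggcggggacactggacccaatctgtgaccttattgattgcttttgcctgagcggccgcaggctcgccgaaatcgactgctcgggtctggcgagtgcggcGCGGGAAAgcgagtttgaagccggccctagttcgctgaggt
Pcna: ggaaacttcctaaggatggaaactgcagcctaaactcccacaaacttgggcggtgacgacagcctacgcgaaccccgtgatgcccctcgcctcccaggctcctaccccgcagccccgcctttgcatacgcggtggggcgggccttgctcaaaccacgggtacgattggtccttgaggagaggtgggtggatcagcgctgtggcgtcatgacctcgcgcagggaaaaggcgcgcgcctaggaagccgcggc
The letters begin at -27 from the start in Orc1, which was 3.95-fold lower, and at -41 in Gins3, which was 1.13-fold lower with an interval that includes 1 (0.891 to 1.43).

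The MCM genes, which encode the ring of the helicase, formed a lower and a less low trio. Mcm3 had 86.3 CPM in the knockout library, against 210.2 CPM in the wild-type library, 2.44-fold lower (2.29 to 2.60). Mcm5 had 99.05 CPM in the knockout library and 236 CPM in the wild-type library, 2.38-fold lower (2.24 to 2.53). Mcm6 had 139.7 CPM in the knockout library and 318 CPM in the wild-type library, 2.28-fold lower (2.16 to 2.40). The intervals of these 3 overlap one another and lie clear of those of the other trio. There, Mcm7 had 110.2 CPM in the knockout and 196 CPM in the wild-type library, 1.78-fold lower (1.67 to 1.89), and Mcm2 had 113 CPM in the knockout and 189 CPM in the wild-type library, 1.67-fold lower (1.58 to 1.77). Mcm4 had 149.6 CPM in the knockout library and 225 CPM in the wild-type library, 1.5-fold lower (1.43 to 1.58), and was the member of the ring not called. Within this trio the intervals of Mcm7 and Mcm4 do not overlap. Exons of Mcm7 overlap those of other genes, Cops6 and Ap4m1 among them, over 12.6% of their length. Cops6 was nearly level, at 68.9 CPM in the knockout library and 67.3 CPM in the wild-type library. Ap4m1 was too, at 38.0 CPM in the knockout library and 38.7 CPM in the wild-type library. The ratio of Mcm7, and so its place in this trio, is therefore less certain. The ring genes together held 698 CPM in the knockout library and 1374 CPM in the wild-type library, 1.97-fold lower (1.92 to 2.01).

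The factors that turn the ring into an active helicase were unequal in their ratios. Cdc45 was at 15.3 CPM in the knockout library, against 39.1 CPM in the wild-type library, 2.56-fold lower (2.20 to 2.99). Mcm10, which helps to activate the helicase, was at 18.1 CPM in the knockout and 31.8 CPM in the wild-type library, 1.75-fold lower (1.51 to 2.04), just past the limit. The GINS genes spread from Gins1, with 51 counts in the knockout and 138 counts in the wild-type library and 2.17-fold lower (1.57 to 3.06), to Gins3, with 123 counts in the knockout and 173 counts in the wild-type library and 1.13-fold lower. Gins2 had 11.9 CPM in the knockout library and 17.9 CPM in the wild-type library, 1.5-fold lower (1.25 to 1.82). Its exons overlap those of Gse1 over 67.3% of their length, and Gse1 was higher in the knockout library, at 286 CPM against 126 CPM in the wild-type library, so the level of Gins2 is uncertain.

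In DNA polymerases alpha, delta and epsilon, the genes of the 3 catalytic subunits were called lower, and the partner genes Pola2, Pold2 and Pole2 were not. Pola1, which encodes the catalytic subunit of DNA polymerase alpha, was at 18.6 CPM in the knockout library, against 58.4 CPM in the wild-type library, 3.15-fold lower (2.75 to 3.61). Its partner gene Pola2 was at 74.9 CPM in the knockout and 75.8 CPM in the wild-type library, 1.01-fold lower with an interval that includes 1 (0.935 to 1.10). The pattern recurred in polymerase delta, where the catalytic gene Pold1 was at 61.9 CPM in the knockout and 103 CPM in the wild-type library, 1.67-fold lower (1.54 to 1.81), and the accessory gene Pold2 at 38.2 CPM in the knockout and 45.4 CPM in the wild-type library, 1.19-fold lower (1.06 to 1.32). In polymerase epsilon, the catalytic gene Pole was at 55.1 CPM in the knockout and 97.1 CPM in the wild-type library, 1.76-fold lower (1.62 to 1.92), and the accessory gene Pole2 at 16.0 CPM in the knockout and 19.8 CPM in the wild-type library, 1.24-fold lower (1.05 to 1.47). In these 3 pairs the intervals of the catalytic and the accessory gene do not overlap. Another accessory gene of polymerase delta, Pold3, which is outside the 48 and was named after its value was seen, was 1.51-fold lower (1.37 to 1.66), and its interval overlaps that of Pold1. The primase genes, which make the RNA primers, had overlapping intervals and neither was called. Prim1 was at 32.7 CPM in the knockout and 53.6 CPM in the wild-type library, 1.64-fold lower (1.47 to 1.83). Its interval overlaps that of Pold1, which was called. Prim2 was at 22.1 CPM in the knockout and 34.8 CPM in the wild-type library, 1.58-fold lower (1.38 to 1.81).

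Fork factors were lower in part. Pcna, the sliding clamp, had 187 CPM in the knockout library, against 299 CPM in the wild-type library, 1.59-fold lower (1.52 to 1.67). The pseudogene Pcna-ps2 had its own row, with 694 counts in the knockout and 1349 counts in the wild-type library, so reads may be split between the copies. Of the clamp loader genes, Rfc4 was 2.47-fold lower (2.01 to 3.06), at 8.45 CPM in the knockout and 20.9 CPM in the wild-type library. Rfc5, at 27.6 CPM in the knockout and 46.1 CPM in the wild-type library, was 1.67-fold lower (1.48 to 1.89). Rfc3, at 21.4 CPM in the knockout and 30.9 CPM in the wild-type library, was 1.44-fold lower (1.25 to 1.66). Neither was called, and Rfc5 missed the limit narrowly. Exons of Rfc4 overlap those of Eif4a2 over 12.7% of their length. Eif4a2 was at far higher levels, 578 CPM in the knockout library and 509 CPM in the wild-type library. Exons of Rfc5 overlap those of Wsb2 over 10.7% of their length. Lig1, the ligase that joins Okazaki fragments, had 82.2 CPM in the knockout library and 137 CPM in the wild-type library, 1.67-fold lower (1.56 to 1.79).

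The single-strand binding protein RPA and the chromatin assembly factor CAF-1 showed the same kind of inequality between subunits. Rpa1, the large subunit of RPA, had 113 CPM in the knockout library and 184 CPM in the wild-type library, 1.63-fold lower (1.54 to 1.73), and Rpa2 had 44.3 CPM in the knockout and 50.2 CPM in the wild-type library, 1.13-fold lower (1.02 to 1.25). Chaf1a, the large subunit of CAF-1, had 25.8 CPM in the knockout library and 61.9 CPM in the wild-type library, 2.40-fold lower (2.14 to 2.71), and Chaf1b had 33.7 CPM in the knockout and 40.2 CPM in the wild-type library, 1.19-fold lower (1.06 to 1.34). Exons of Chaf1a overlap those of Ubxn6 over 52.5% of their length. Ubxn6 was nearly level, at 78.0 CPM in the knockout library and 74.8 CPM in the wild-type library. Fen1, the nuclease that trims Okazaki fragments, had 40.4 CPM in the knockout library and 36.4 CPM in the wild-type library, a ratio of 1.11 (0.993 to 1.24). As 84.2% of its exon length is shared with Tmem258 and Gm10143, its own level is uncertain.

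Nucleotide synthesis was led by ribonucleotide reductase, the enzyme that makes deoxynucleotides. Rrm2, its small subunit (mm10 chromosome 12, 24708241 to 24714146), was at 49.6 CPM in the knockout library, against 158 CPM in the wild-type library, 3.19-fold lower (2.94 to 3.47). The large subunit gene Rrm1 was at 92.8 CPM in the knockout library, against 248 CPM in the wild-type library, 2.67-fold lower (2.52 to 2.84). Rrm2b, the p53-inducible small subunit used outside S phase and named here after its value was seen, was at 23.2 CPM in the knockout and 28.8 CPM in the wild-type library, 1.24-fold lower (1.08 to 1.43). Tyms, thymidylate synthase, had 16.8 CPM in the knockout library and 38.6 CPM in the wild-type library, 2.30-fold lower (1.99 to 2.68). Dut, which removes dUTP, was 1.75-fold lower (1.58 to 1.95), at 36.2 CPM in the knockout and 63.5 CPM in the wild-type library.

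The remaining genes of the class act in pyrimidine synthesis and in thymidine salvage. Umps, which completes uridine monophosphate, was at 31.1 CPM in the knockout library and 61.6 CPM in the wild-type library, 1.98-fold lower (1.77 to 2.21). Cad, the enzyme of the first steps of the same route, was at 111 CPM in the knockout library and 144 CPM in the wild-type library, 1.30-fold lower (1.22 to 1.38). The thymidine kinase gene Tk1 was at 39.9 CPM in the knockout library and 49.9 CPM in the wild-type library, 1.25-fold lower (1.13 to 1.39). Cad and Tk1 were the genes of the class not called.

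Per length, in the authors' FPKM, Pcna was highest of the 48 in both libraries, at 53.4 FPKM in the knockout and 85.1 FPKM in the wild-type library, and it also ranked first when wild-type counts were divided by GENCODE exon length. The order below it depends on the lengths used. The length implied by count and FPKM ranged from 0.346 to 2.89 times the GENCODE exon length of the same gene, with a median of 1.34. Rrm1 ranked 4 of 48 in wild-type FPKM and 15 by GENCODE length, and Pola2 ranked 11 and 31. Ratios between the libraries are not touched by length.

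Other genes of the same pathway were set beside the 48, as 88 genes in 5 lists. Over these lists 21 of 88 were called lower (23.9%) and 2 called higher, with a median log2 ratio of -0.34. Over all measured genes 12.3% were called lower and 9.58% higher. E2F partners and pocket proteins had 5 of 17 called lower (29.4%) and 1 higher, median -0.41. The list includes E2f4, a further E2F factor named after its value was seen, which was called lower, at 112.9 CPM in the knockout library against 184 CPM in the wild-type library, 1.63-fold (1.54 to 1.73). Skp2, a ubiquitin ligase subunit that removes CDK inhibitors, was 2.24-fold lower (1.78 to 2.86), and Tfdp1, the partner with which E2F binds DNA, 1.89-fold lower (1.75 to 2.04). The other partner gene Tfdp2 was higher, at 47.6 CPM in the knockout library against 23.1 CPM in the wild-type library, 2.06-fold (1.83 to 2.34). The pocket protein gene Rbl1 had a ratio of 1.45 (1.36 to 1.54), and was not called.

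Of 17 origin factors outside the 48, 3 were called lower (17.6%) and 0 higher, with a median of -0.10. That share is near the 12.3% of all measured genes called lower. The called ones were Dbf4, the activator of the kinase CDC7, at 2.32-fold lower (2.11 to 2.55), the firing factor Ticrr at 2.18-fold lower (1.93 to 2.46) and the helicase Recql4 at 2.03-fold lower (1.68 to 2.45). Other subunits of the origin recognition complex, of which Orc2 and Orc5 were named after their values were seen, were not called. Orc2, Orc4 and Orc5 had ratios of 0.956 (0.866 to 1.06), 1.17 (1.07 to 1.28) and 0.876 (0.768 to 0.999), and Orc3 had 1.54 (1.44 to 1.64). The intervals of these 4 genes lie above that of Orc1, whose ratio was 0.253 (0.188 to 0.337).

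Among 22 other polymerase and fork factors, 5 were called lower (22.7%) and 0 higher (median -0.35). The histone chaperone Asf1b was 2.23-fold lower (2.01 to 2.48), the checkpoint mediator Clspn 1.99-fold (1.80 to 2.22) and Dnmt1, which copies DNA methylation behind the fork, 1.89-fold lower (1.81 to 1.97). In dNTP and folate supply, 7 of 16 were called lower (43.8%) and 1 higher (median -0.49). The deaminase Dctd was 2.71-fold lower (1.95 to 3.82) and Mthfd1, an enzyme of folate metabolism, 1.95-fold lower (1.79 to 2.14). The gene called higher was Samhd1, which breaks dNTPs down and is expressed in resting cells, at 2131 CPM in the knockout library against 993 CPM in the wild-type library, 2.15-fold higher (2.11 to 2.19). Purine and pyrimidine ring synthesis had 1 of 16 called lower and 0 higher (median -0.27), the 1 being Atic at 1.89-fold lower (1.77 to 2.03). That share, 6.25%, is below the 12.3% of all measured genes called lower.

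**Figure D4:**
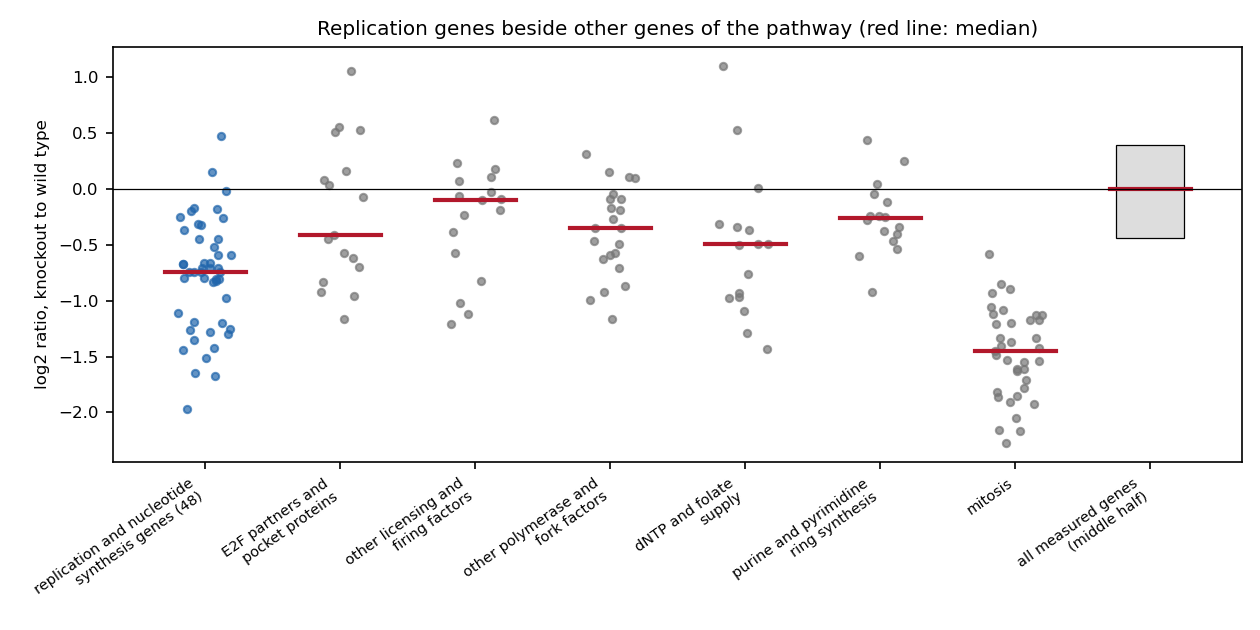
Log2 ratio of knockout to wild type for each gene of the 48 replication genes, of the 5 lists of other pathway genes and of the mitosis list, with medians in red; the grey box spans the middle quartiles of all measured genes. The median of the 48 genes is -0.74, those of the other pathway lists lie between -0.49 and -0.10, and that of mitosis is -1.45.

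Genes of mitosis were lower still. Of 37 such genes, 36 were called lower and 0 higher, with a median log2 ratio of -1.45, against -0.74 for the replication genes. Their summed level was 2.78-fold lower (2.74 to 2.82), while that of the replication genes was 1.72-fold lower. Upstream, of 11 measured G1 cyclins, CDKs and CDK inhibitors, 3 were called lower and 3 higher. The higher ones were Ccnd2, cyclin D2, at a ratio of 1.83 (1.78 to 1.87), and the CDK inhibitors Cdkn1a, at 1.97 (1.68 to 2.31), and Cdkn2d, at 1.92 (1.75 to 2.10). Cdkn2c, another inhibitor of that family, was 3.17-fold lower (2.72 to 3.70). The others called lower were the kinase gene Cdk4, at 1.76-fold (1.63 to 1.89), and the inhibitor gene Cdkn2a. Cdkn2a had few counts, 9 in the knockout library and 43 in the wild-type library, and was 3.84-fold lower (1.84 to 8.95). These differences between lists were not tested.

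Markers of other cells in the spleen differed between the libraries as well. Of 13 B cell markers 10 were called lower and 0 higher, and their sum was 49.97 CPM in the knockout library, against 169 CPM in the wild-type library. Of 15 measured erythroid markers 14 were called lower. The exception, Gata1, was higher, at 108 CPM in the knockout library against 29.7 CPM in the wild-type library. Without Gata1 the erythroid sum was 29.4 CPM in the knockout library and 122 CPM in the wild-type library. Of 10 measured myeloid markers 2 were called lower and 1 higher, with sums over all 12 listed of 180.3 CPM in the knockout and 145 CPM in the wild-type library; S100a8 was at 0 counts in the knockout library and Elane in both. The 6 markers of immature lymphocytes summed to 1.72 CPM in the knockout library and 6.46 CPM in the wild-type library, with Rag2 at 0 in both and Ptcra at 0 in the wild-type library. The part of these cells in the levels of the replication genes was not tested.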

How the data were processed

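Splenic Treg cells were sorted and 1 library per genotype was made from total RNA with a kit that does not mark strand, per the labels' protocols. The authors deposited a table for each library with a read count and an FPKM value per gene. The submitters' processing notes name TopHat, HTSeq and the mm10 build; the sources used here do not give versions, annotation or counting mode. The deposited counts are whole numbers that were not normalized, and the deposited FPKM values were computed by the authors with gene lengths that are not given.

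From the counts, CPM was computed on library sizes scaled by TMM (edgeR 4.0.16, R 4.3.3). Each ratio has an exact (Clopper-Pearson) 95% interval from the binomial split of its counts, which covers counting error only, since PCR copies could not be told from separate molecules. Log2 ratios had 0.5 counts added. Alternatives were plain totals, DESeq2 1.42.0 size factors, the upper quartile, other limits and filters, and leaving out 9 genes with more than 10% exon overlap, the last chosen after seeing the data. Exon overlap and coordinates came from GENCODE M21 (mm10). The interval script was tested on simulated data.

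The members and lists were chosen with earlier results of these data known. The rule for naming genes takes all 48 genes, Psmd14, Foxp3, Il2ra and Mki67. It also takes up to 3 genes at each end of each other list by the interval bound nearest to 1. From each marker list it takes the highest marker. All 48 genes are named, while some of the rule's genes from the other lists are not. Any gene named outside the rule is marked as named after its value was seen, is a marker at 0, or shares exons or sequence with a gene named. A gene that the rule names is not reported here.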

Additional observations from a re-analysis of the deposited data

How the results depend on the processing

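No paired analysis was possible because there is 1 library per genotype, and no library could be left out. The count of replication genes called lower was 24 with plain totals, with DESeq2 size factors and without the filter on low values, 22 with a 99% interval and 20 with upper-quartile scaling. Over all genes the count called lower was 1655 with plain totals, 1679 with DESeq2 size factors and 1856 without the filter. It was 1414 with a 99% interval and 1543 with upper-quartile scaling. At a 2-fold limit 12 replication genes were called lower, with 892 of all 13464 measured genes lower (6.63%) and 585 higher (4.34%). The count of replication genes called higher was 0 in each of these settings. Over all genes it was 1297, 1272, 1447, 1048 and 1399 in the order above, before the 2-fold limit. Upper-quartile scaling gave summed levels 1.68-fold lower for the 48 genes, 1.91-fold for the CMG helicase and 1.51-fold for fork factors, moved the median of all genes to 0.03 and that of the 48 to -0.70, and turned Pola2 to a log2 ratio of 0.02. Mcm10, Pold1, Pcna and Rpa1 were then not called. Without the 9 genes whose exons overlap other genes by more than 10%, an alternative chosen after seeing the data, 19 of 39 were called lower and 0 higher. Over all measured genes, overlapping ones included, 12.3% were called lower and 9.58% higher. Depth limits genes such as Gins1 and Orc1, whose knockout counts were 51 and 58.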
